A study of Homo sapiens with 12 samples.

Results

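The genes described here make and handle sterols and fatty acids in REC1, a human cell line grown from a mantle cell lymphoma. The group holds 39 genes of the 60483 in the count table, chosen by symbol from knowledge of the pathways and matched through their Ensembl identifiers. Earlier results of these data were known at the time, so the choice was not independent of them. The group comprises 5 regulators of the SREBP system, 18 enzymes of sterol synthesis, 5 genes of sterol transport or of the LXR response, and 11 enzymes of fatty acid and lipid synthesis. All 39 passed the filter on low counts and were tested among 14412 genes.

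Transcripts were counted by RNA sequencing of poly(A) RNA after treatment with the combination of ibrutinib and SPX5551, with ibrutinib, with SPX5551, or with DMSO, the vehicle. Ibrutinib inhibits the B-cell kinase BTK, and SPX5551 is studied in this series as an inhibitor of the chemokine receptor CXCR4. Cells were collected at 4, 8 and 12 h, with 1 library for each treatment and time and 12 libraries in all. No source used here gives the doses. No treatment was repeated at a time, so the tests used the 3 times of a treatment as its replicates. The p-values therefore reflect the spread between these particular libraries, which may be technical in part. Library totals ranged from 19336303 to 28934030 counts. The free-text sample descriptions name a column of another treatment for each library. Values here follow the column headers, which match the sample titles. Headers and titles write pol5551 where the treatment label writes SPX5551, and both were taken as 1 compound. With the columns paired by the descriptions instead, 8 of the 39 genes were higher and 1 was lower in combination than in DMSO cells. The headers gave 1 higher and 13 lower. The share of all genes that passed with the pairing by descriptions is not given here.

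The labelled cell type was checked on its markers. The B-cell gene MS4A1 ranged from 717 to 891 CPM (counts scaled to a library total of 1e+06) over the 12 libraries, and CCND1, the cyclin that marks mantle cell lymphoma, from 1274 to 1760 CPM. SOX11, the other lymphoma marker, ranged from 4.41 to 7.20 CPM. The 5 T-cell markers summed to 6.05 to 9.60 CPM in combination libraries and 7.05 to 7.97 CPM in DMSO libraries. Most of it was CD3D, at 2.63 to 3.91 CPM over the 12 libraries, and CD3E, at 2.63 to 6.68 CPM. CD3G, CD4 and CD2 were at no more than 0.204, 0.102 and 0.0340 CPM. The 5 myeloid markers summed to at most 1.31 CPM in combination libraries and 1.39 CPM in DMSO libraries, and FCN1 was at 0 in all 12. The 6 stromal or epithelial markers summed to 29.5 to 47.6 CPM in combination libraries and 39.5 to 48.5 CPM in DMSO libraries, most of it KRT18, with COL1A2 at no more than 0.0711 CPM.

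Sterol and fatty acid synthesis share a set of transcription factors, the SREBPs, which are made as precursors in the membrane of the endoplasmic reticulum. SCAP escorts them to the Golgi for cleavage when sterols are scarce, and the INSIG proteins hold SCAP back when sterols are plentiful. Freed SREBPs bind promoters of sterol and lipid enzymes, often beside sites for NF-Y and SP1, while the LXR receptors, which sense oxidised sterols, raise genes of sterol export. Dividing B cells use both pathways for membrane lipids.

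Levels per length differed over orders of magnitude within the group. SCD, the desaturase that makes monounsaturated fatty acids, was highest at 227 CPM per kb of its longest annotated transcript, as a mean over the 12 libraries. It was followed by the squalene synthase FDFT1 at 171, the farnesyl diphosphate synthase FDPS at 158 and the HMG-CoA synthase HMGCS1 at 152 CPM per kb. The lowest levels belonged to the sterol exporters ABCA1 and ABCG1, at 0.160 and 0.294 CPM per kb. These 2 genes had 470 and 287 counts over all 12 libraries, so their values carry a large counting error. The lanosterol demethylase CYP51A1 was the next lowest at 1.58 CPM per kb. CYP51A1 shares 2844 exon bases on its own strand with AC000120.2 in GENCODE release 29, and no source used here says how reads in shared bases were counted. Its values are uncertain for that reason. On opposite strands, FADS1 and FADS2 share 490 exon bases, PCYT2 shares 1941 with NPB, and ACAT2 shares 1141 with SOD2 and 1458 with SOD2-OT1. HMGCS1 shares 703 with AC114947.2, FDPS 693 with RUSC1-AS1 and IDI1 643 with IDI2-AS1, also on opposite strands. So do NPC1 (604 with RMC1) and SREBF1 (556 with RAI1), and further genes of the group have shorter overlaps. Whether counting used the strand is unknown too, so reads in these stretches cannot be told apart.

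Promoter stretches are shown for 4 genes that were lower in combination than in DMSO cells and, for comparison, for SREBF2, the only gene of the group whose promoter held the longer sterol motif searched. They are RefSeq sequences in build GRCh38.p14, read in the direction of the gene and ending upstream of its start. Capitals mark CCAAT, the box bound by NF-Y, and CACNCCAC, the core of a sterol response element, or the reverse complement of either. The stretches lie at chr5:43313498-43313577 (minus strand, HMGCS1), chr7:155297660-155297722 (plus strand, INSIG1), chr11:71448427-71448497 (minus strand, DHCR7), chr10:100346994-100347136 (plus strand, SCD) and chr22:41832963-41833013 (plus strand, SREBF2).
HMGCS1: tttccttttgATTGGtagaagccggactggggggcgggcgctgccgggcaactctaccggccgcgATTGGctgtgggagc
INSIG1: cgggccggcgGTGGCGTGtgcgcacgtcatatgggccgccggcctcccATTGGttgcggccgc
DHCR7: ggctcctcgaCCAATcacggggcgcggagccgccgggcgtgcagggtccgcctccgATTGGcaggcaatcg
SCD: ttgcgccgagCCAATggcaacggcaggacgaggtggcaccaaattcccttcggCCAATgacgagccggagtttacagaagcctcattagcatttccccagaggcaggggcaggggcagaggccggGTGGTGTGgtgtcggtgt
SREBF2: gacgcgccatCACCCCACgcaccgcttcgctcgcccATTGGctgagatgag

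Of the 39 genes, 34 had a RefSeq promoter window, from 250 bases before to 50 bases after the start. ABCG1, ACAT2, FASN, FDFT1 and SQLE had none in the table. CCAAT, searched on both strands, was in the windows of 25 of the 34 genes (73.5%), against 39.7% of all 27305 genes with a window. It was in 8 of the 10 windowed genes that were lower in combination than in DMSO cells and in 16 of the 23 that did not pass that test. GGGCGG, the core of the SP1 site, was in 32 of 34 (94.1%), against 48.3% of all genes, and CACGTG was in 6 of 34 (17.6%), against 8.78%. TCACNCCAC was in the SREBF2 window alone (2.94% of the 34), against 1.39% of all genes. Since it was in none of the genes that passed, its shorter core CACNCCAC, which overlaps it, was searched after the values had been seen. The core was in 7 of 34 (20.6%), against 7.05% of all genes, and it was in 2 of the 10 lower genes, INSIG1 and SCD, and in 5 of the 23 that did not pass. The stretches printed were chosen after the values had been seen. The 34 genes had all passed the filter on low counts, whereas the 27305 were not limited to genes that passed it, so the sets are unlike. A match describes the letters only.

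The first comparison asked what both agents together did to the pathway. In combination cells, 13 of the 39 genes fell and 1 rose relative to DMSO cells at an adjusted p under 0.05 (edgeR quasi-likelihood test, Benjamini-Hochberg adjustment over all genes tested). Over all 14412 genes, 5.41% were lower and 4.16% were higher. The genes that fell comprised 8 of the 18 sterol enzymes, 4 of the 11 fatty acid and lipid enzymes and 1 of the 5 SREBP regulators, and the gene that rose was MYLIP, 1 of the 5 transport and LXR genes. The median log2 fold change was -0.32 over the sterol enzymes, -0.37 over the fatty acid and lipid enzymes, 0.00 over the regulators and 0.57 over the transport genes, against 0.02 over all genes tested. All 3 combination libraries lay below all 3 DMSO libraries for 9 of the 39 genes and above them for 1, and over all genes these shares were 5.16% and 6.35%. In bulk RNA, a smaller number of cells that make a transcript and less of it per cell cannot be told apart.

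**Figure D1:**
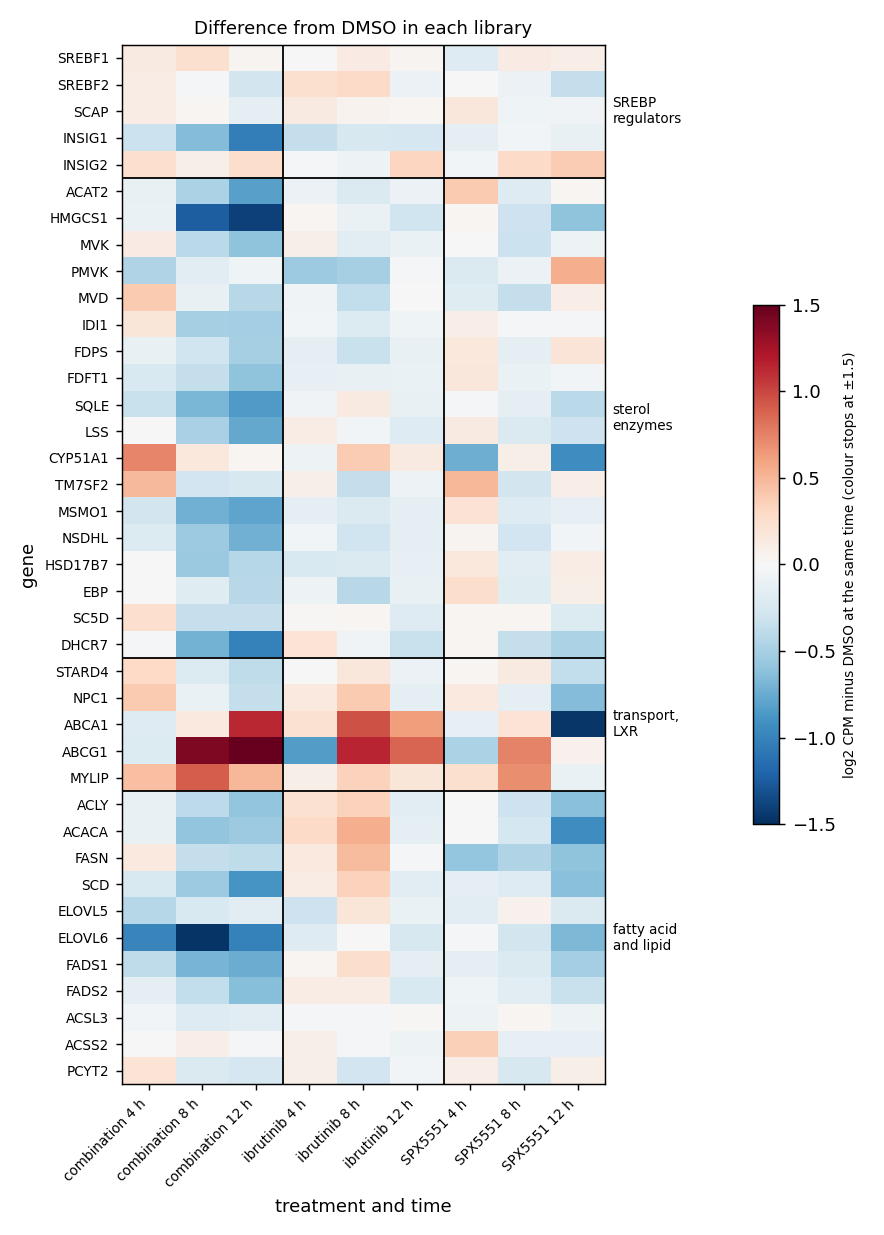
Difference of each gene (rows, by role) from the DMSO library of the same time, in log2 CPM, for the combination, ibrutinib and SPX5551 libraries at 4, 8 and 12 h (columns). Colour runs from blue (lower than DMSO) to red (higher) and stops at ±1.5. By their median, the sterol rows are bluest in the 8 and 12 h combination columns. The fatty acid rows have medians of -0.55 in the 12 h combination, -0.51 in the 12 h SPX5551 and -0.37 in the 8 h combination column.

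Among the regulators, INSIG1, the anchor that retains SCAP and is itself switched on by SREBPs, stood at 252, 186 and 122 CPM at 4, 8 and 12 h in combination cells, against 315, 293 and 249 CPM in DMSO cells. It was lower at every time, although the 4 h combination library was level with the 12 h DMSO library, so the groups overlapped. Its log2 fold change was -0.65 ± 0.12 (SE; adjusted p = 0.00436). The other 4 regulators did not pass. SREBF2, which encodes the SREBP of sterol genes, had 198, 221 and 201 CPM in combination cells, against 183, 226 and 243 CPM in DMSO cells, and the groups overlapped (log2 fold change -0.07 ± 0.09, adjusted p = 0.706). SREBF1, which encodes the SREBPs of fatty acid genes, differed by 0.14 ± 0.09, SCAP by 0.00 ± 0.09, and INSIG2, the second anchor protein, by 0.20 ± 0.12, all on the log2 scale.

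Sterol synthesis begins with enzymes that turn acetyl-CoA into isoprenoids through mevalonate. HMGCS1, which makes HMG-CoA (ENSG00000112972.13, chr5:43289395-43313512 in hg38), had 453, 334 and 265 CPM at 4, 8 and 12 h in combination cells, against 484, 789.8 and 699.6 CPM in DMSO cells. Its 3 combination libraries all lay below the DMSO libraries, close to them at 4 h and far below at 8 and 12 h. This was the largest fall among the sterol enzymes, with a log2 fold change of -0.89 ± 0.18 (adjusted p = 0.00632). ACAT2, the thiolase that supplies acetoacetyl-CoA, had 142, 203 and 141 CPM, against 153, 282 and 247 CPM in DMSO cells. Every time was lower but the groups overlapped, and the log2 fold change was -0.46 ± 0.13 (adjusted p = 0.0316). The 5 further enzymes of this stretch did not pass: the mevalonate kinase MVK (-0.29 ± 0.12), the phosphomevalonate kinase PMVK (-0.24 ± 0.13), the decarboxylase MVD (-0.03 ± 0.15), the isomerase IDI1 (-0.26 ± 0.12) and FDPS (-0.30 ± 0.10, adjusted p = 0.0792).

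The next enzymes commit isoprenoids to sterols. SQLE, the squalene epoxidase, had 196, 211 and 175 CPM in combination cells at 4, 8 and 12 h, against 247, 339.9 and 314 CPM in DMSO cells. All 3 combination libraries were below all 3 DMSO libraries, and already so at 4 h. Its log2 fold change was -0.62 ± 0.11 (adjusted p = 0.00243). FDFT1, which makes squalene, had 341, 437 and 347 CPM, against 401, 558 and 526 CPM in DMSO cells, and the lanosterol synthase LSS had 160.5, 183 and 132 CPM, against 160.3, 256 and 225 CPM. For both, the 8 and 12 h combination libraries were lower than the DMSO libraries of their time, LSS was level with DMSO at 4 h, and the groups overlapped. The log2 fold changes were -0.39 ± 0.09 for FDFT1 (adjusted p = 0.0168) and -0.42 ± 0.11 for LSS (adjusted p = 0.0289).

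Late enzymes trim lanosterol to cholesterol. MSMO1, the methylsterol oxidase, had 83.3, 117 and 91.4 CPM in combination cells, against 101, 193 and 158 CPM in DMSO cells. It was lower at each time, with overlap only between the 8 h combination and 4 h DMSO libraries, and its log2 fold change was -0.60 ± 0.10 (adjusted p = 0.00278). NSDHL, the dehydrogenase that acts after it, had 83.9, 88.7 and 55.8 CPM, against 96.8, 129.6 and 91.7 CPM, and fell without overlap (-0.49 ± 0.10, adjusted p = 0.00878). DHCR7, the reductase of the last step, had 182, 159.9 and 101 CPM, against 186, 262 and 205 CPM. It was nearly level at 4 h and far below at 12 h, and the groups did not overlap (-0.59 ± 0.13, adjusted p = 0.0116). HSD17B7, a ketosteroid reductase (-0.33 ± 0.11), the isomerase EBP (-0.20 ± 0.11), the desaturase SC5D (-0.14 ± 0.12) and the reductase TM7SF2 (-0.04 ± 0.13) did not pass. CYP51A1 was the 1 sterol enzyme with a positive value (0.31 ± 0.22, adjusted p = 0.424).

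**Figure D2:**
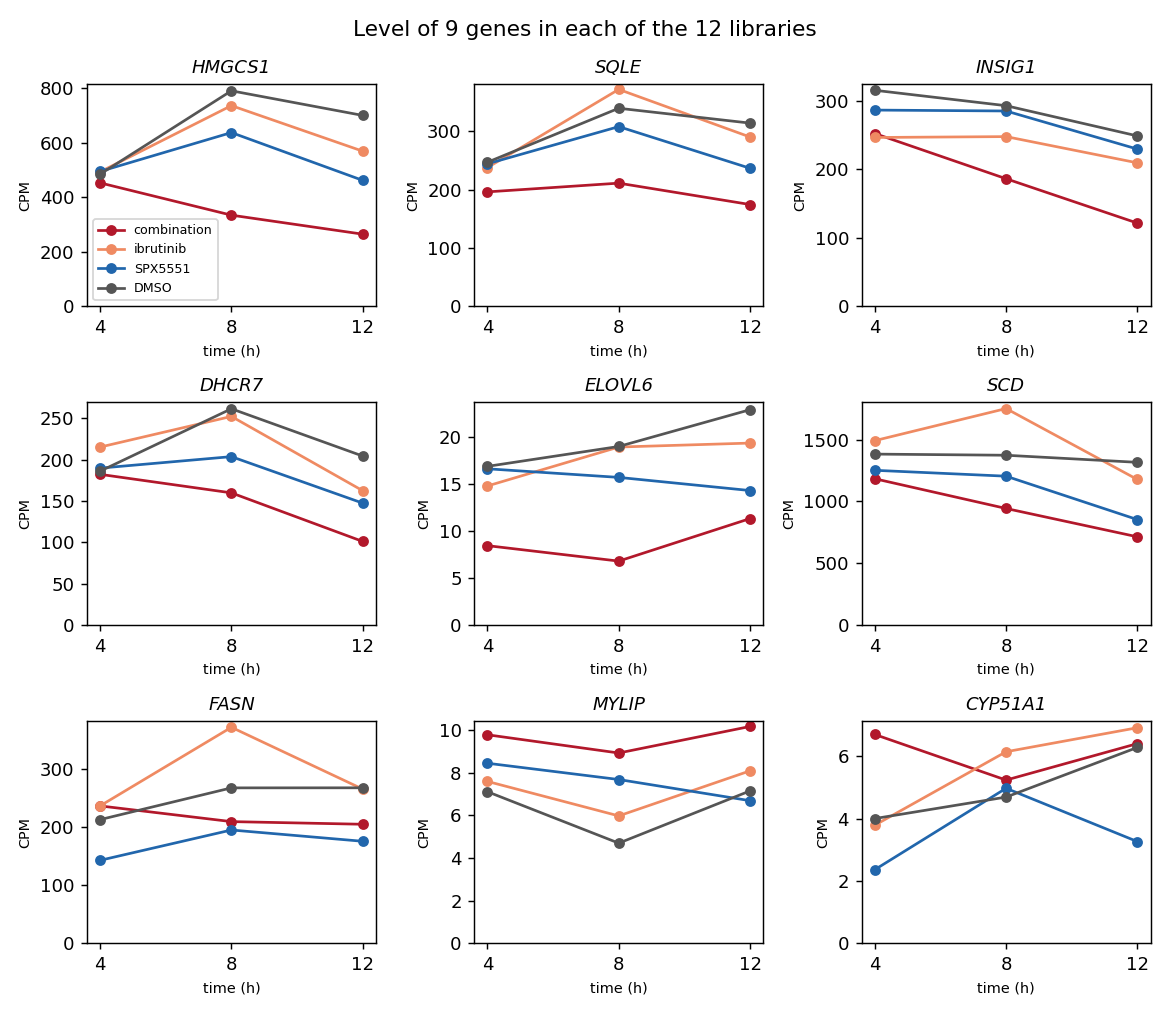
CPM (vertical axes, from 0) of 9 genes at 4, 8 and 12 h (horizontal axes) in combination, ibrutinib, SPX5551 and DMSO cells, with 1 library per point. HMGCS1 stood at 265 CPM in the 12 h combination library, against 700 CPM in DMSO cells, while MYLIP was higher in combination than in DMSO cells at each time.

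Of the transport and LXR genes, MYLIP, a ubiquitin ligase that is an LXR target and removes lipoprotein receptors, had 9.77, 8.92 and 10.2 CPM in combination cells, against 7.11, 4.70 and 7.15 CPM in DMSO cells. All 3 combination libraries were above all 3 DMSO libraries, and the log2 fold change was 0.62 ± 0.15 (adjusted p = 0.0168). ABCG1 had 1.01, 0.953 and 3.23 CPM, against 1.18, 0.306 and 0.704 CPM, and ABCA1 had 0.833, 1.19 and 4.61 CPM, against 0.962, 1.07 and 2.06 CPM. Both exporters were highest in the 12 h combination library, the groups overlapped for both, and neither passed (log2 fold changes 1.17 ± 0.42 and 0.57 ± 0.39, adjusted p = 0.0914 and 0.401). The sterol carrier STARD4 (-0.09 ± 0.13) and the lysosomal sterol exporter NPC1 (-0.03 ± 0.14) were near 0 on the log2 scale.

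ELOVL6, which lengthens saturated fatty acids (ENSG00000170522.8, chr4:110045846-110199199 in hg38), had the largest fall of the 39 genes. It stood at 8.42, 6.78 and 11.3 CPM in combination cells at 4, 8 and 12 h, against 16.8, 18.9 and 22.8 CPM in DMSO cells. The combination libraries were all below the DMSO libraries, about as far at 4 h as at 12 h, and the log2 fold change was -1.15 ± 0.15 (adjusted p = 3.82e-04). It passed in every alternative analysis run with the columns paired by their headers. FADS1, a desaturase of polyunsaturated fatty acids, had 150.4, 111 and 109 CPM, against 195, 179 and 182 CPM, and SCD had 1183, 942 and 713 CPM, against 1382, 1373 and 1315 CPM. Neither gene's groups overlapped, and the log2 fold changes were -0.60 ± 0.11 (adjusted p = 0.00278) and -0.55 ± 0.12 (adjusted p = 0.00987). FADS2, the other desaturase of that pathway, fell with overlapping groups (-0.39 ± 0.09, adjusted p = 0.0190). ACLY, which makes cytosolic acetyl-CoA, had 263, 263 and 245 CPM, against 283, 345 and 369 CPM. Its groups did not overlap but it lay just outside the threshold (-0.37 ± 0.11, adjusted p = 0.0511). The acetyl-CoA carboxylase ACACA did not overlap either and did not pass (-0.42 ± 0.15, adjusted p = 0.0937). The fatty acid synthase FASN (-0.18 ± 0.13), the elongase ELOVL5 (-0.27 ± 0.10), the acyl-CoA synthetase ACSL3 (-0.13 ± 0.08), the acetyl-CoA synthetase ACSS2 (0.03 ± 0.13) and PCYT2, of phosphatidylethanolamine synthesis (-0.09 ± 0.10), did not pass.

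The count of 14 genes was sensitive to single times and libraries. Without the 8 h libraries 3 genes passed (ELOVL6, SQLE and FADS1), without the 12 h libraries 8, without the 12 h combination library 8, and without the 8 h or the 12 h DMSO library 8 or 9. With a trend of each library with transcript length and GC content removed, 22 passed, 1 higher and 21 lower. The genes gained were FASN (-0.39 ± 0.10), ACLY, ACACA, ELOVL5, PCYT2, PMVK, FDPS and HSD17B7. How many of all genes passed under each of these alternatives is not given here. A changed count, here or in the comparisons below, therefore cannot be read as particular to this group.

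For both enzyme groups, the median difference between combination and DMSO cells was smallest at 4 h. At 4 h, 10 of the 18 sterol enzymes were below DMSO, with a median difference of -0.02 in log2 CPM, and at 8 and 12 h 17 of 18 were, with medians of -0.44 and -0.56. For the 11 fatty acid and lipid enzymes, 9, 10 and 11 were below DMSO at 4, 8 and 12 h, with medians of -0.12, -0.37 and -0.55. The medians were 0.11, 0.03 and -0.13 for the SREBP regulators and 0.30, 0.14 and 0.50 for the transport and LXR genes, so for these the 8 h value was the nearest to 0. Over all genes, 47.1%, 49.2% and 49.8% were below DMSO at these times. Each agent alone was set against the same DMSO libraries. For ibrutinib, 12, 15 and 17 of the 18 sterol enzymes were below DMSO at these times, with medians of -0.05, -0.21 and -0.11. For SPX5551 these were 5, 16 and 11, with medians of 0.07, -0.19 and -0.04. Of the 11 fatty acid and lipid enzymes, 3, 4 and 10 were below for ibrutinib and 8, 9 and 10 for SPX5551. Their 12 h medians were -0.13 and -0.51. Over all genes, the shares were 47.1% to 53.6%. After these values had been seen, a slope over time of the difference from DMSO was added to the model. No gene of the 14412 passed it, with 466 (3.23%) at an unadjusted p under 0.05, and 17 of the 39 genes were among these. The smallest p was that of HMGCS1, whose difference from DMSO changed by -0.16 log2 units per h (unadjusted p = 3.14e-04, adjusted p = 0.857). The steepest slopes were those of the thinly counted exporters ABCG1 and ABCA1, in the other direction (0.31 and 0.19 log2 units per h, adjusted p = 0.996 for both). Slopes of the difference between combination and DMSO cells were negative for 32 of the 39 genes and for 17 of 18 sterol enzymes. For SPX5551 against DMSO they were negative for 31 of the 39 and for 15 of 18 sterol enzymes, and for ibrutinib against DMSO for 23 and 10. The share of all genes with a negative slope was not computed. Median slopes for combination were -0.060 log2 units per h over the 39 genes and -0.0047 over all genes. They were -0.032 and 0.0017 for SPX5551, and -0.0074 and -0.0036 for ibrutinib. At an unadjusted p under 0.05 there were 6 of the 39 for SPX5551, where 10.2% of all genes were, and 2 for ibrutinib, where 2.82% were. The 3 sets of slopes share the DMSO libraries.

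**Figure D3:**
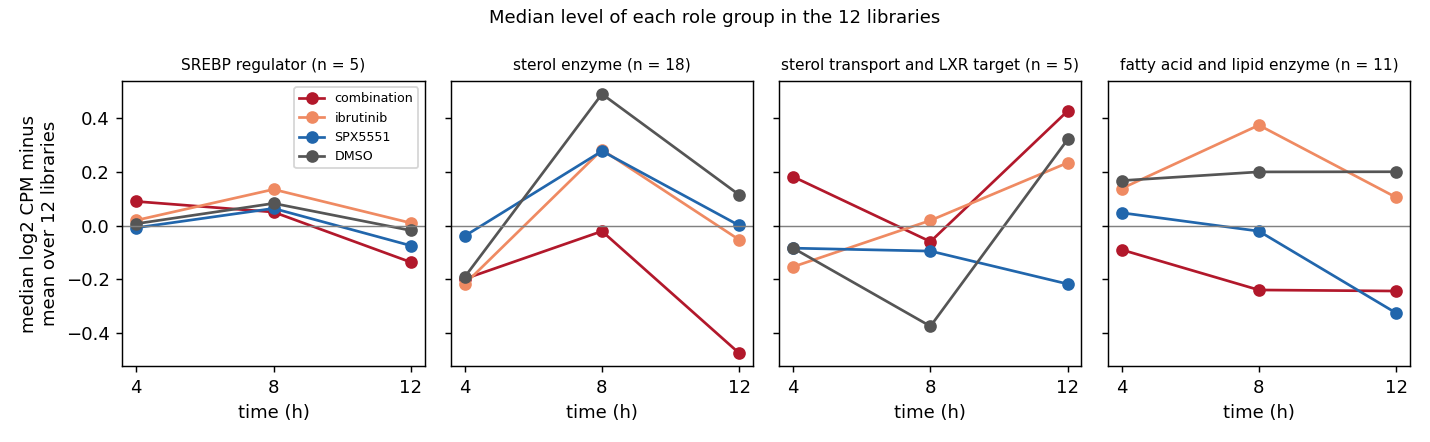
Median over each role's genes of log2 CPM minus the gene's mean over the 12 libraries (vertical axes), by time in h (horizontal axes), for combination, ibrutinib, SPX5551 and DMSO cells. The sterol enzymes reached a median of -0.48 in the 12 h combination library, against 0.11 in the 12 h DMSO library.

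Each agent alone was set against DMSO to see what it did by itself. In ibrutinib cells, 0 of the 39 genes passed, where 0.104% of all genes were lower and 0% higher. At an unadjusted p under 0.05 there were 2 of the 39, where 1588 of all 14412 genes were, and DESeq2 and limma also called 0 of the 39. The median log2 fold change was -0.14 over the sterol enzymes, 17 of 18 being negative, and -0.01 over the fatty acid and lipid enzymes, against 0.01 over all genes. INSIG1 had 247, 248 and 209.5 CPM in ibrutinib cells, against 315, 293 and 249 CPM in DMSO cells. It was lower at every time and was the 1 gene of the 39 whose ibrutinib libraries all lay below DMSO, with none wholly above, where 2.82% of all genes lay wholly below and 3.20% wholly above (-0.28 ± 0.12, adjusted p = 0.452). The other genes with the smallest p were PMVK (-0.37 ± 0.13), FDPS (-0.19 ± 0.10), EBP (-0.20 ± 0.11) and ABCA1 (0.67 ± 0.39), with adjusted p from 0.452 to 0.494.

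SPX5551 alone likewise gave 0 of the 39 genes, and 0% of all genes in either direction, with 7 of the 39 at an unadjusted p under 0.05, where 1200 of all 14412 genes were. DESeq2 and limma called 0 of the 39, and edgeR called 3 with no filter on low counts. Of the 11 fatty acid and lipid enzymes 10 had negative values, with a median of -0.29, whereas the sterol enzymes had a median of -0.04 and all genes of 0.00. FASN had 143, 195 and 175 CPM in SPX5551 cells, against 213, 267 and 267 CPM in DMSO cells. Its SPX5551 libraries were below DMSO at each time without overlap, yet the adjusted p was 0.598 for a log2 fold change of -0.55 ± 0.13. FADS1 (-0.29 ± 0.11), ACLY (-0.31 ± 0.11), SCD (-0.33 ± 0.12) and ACACA (-0.40 ± 0.15) followed in order of p. All 3 SPX5551 libraries lay below all 3 DMSO libraries for 5 of the 39 genes, every one a fatty acid enzyme, and wholly above for 0, against 3.54% and 3.77% of all genes.

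The libraries also differed in how their values related to transcript length. Across all genes, a library's deviation from the gene mean was related to transcript length, with Spearman correlations across genes of -0.20, -0.40 and -0.38 in the SPX5551 libraries at 4, 8 and 12 h, 0.17, 0.41 and 0.32 in the ibrutinib libraries, -0.02, -0.30 and 0.24 in the combination libraries, and -0.15, -0.30 and 0.37 in the DMSO libraries. These correlations describe the libraries, since genes are not independent replicates. The fatty acid and lipid enzymes are long, with a median longest transcript of 5147 bases, against 2663 for the sterol enzymes and 3330 for all genes. With the trend on length and GC content removed, FASN differed by -0.35 ± 0.10 on the log2 scale between SPX5551 and DMSO cells, and the median over the fatty acid and lipid enzymes was -0.23. ELOVL6 differed by -1.17 ± 0.12 between combination and DMSO cells after the same removal.

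The combination was also set against each agent, which asks what the added agent did. These comparisons share the combination libraries with each other and with the comparison against DMSO. Against ibrutinib, 10 of the 39 genes fell and 0 rose, where 3.39% of all genes were lower and 2.10% higher. They comprised 4 sterol enzymes and 6 fatty acid and lipid enzymes, with a median log2 fold change over all 11 of these lipid enzymes of -0.40. ELOVL6 had 8.42, 6.78 and 11.3 CPM in combination cells, against 14.8, 18.9 and 19.3 CPM in ibrutinib cells, and ACACA had 81.9, 60.0 and 83.0 CPM, against 108, 131 and 110.5 CPM. For both genes every combination library was below every ibrutinib library, and the log2 fold changes were -1.01 ± 0.15 (adjusted p = 0.00329) and -0.65 ± 0.15 (adjusted p = 0.0244). The others were HMGCS1 (-0.75 ± 0.18), FADS1 (-0.65 ± 0.11), SCD (-0.65 ± 0.12), SQLE (-0.61 ± 0.11), DHCR7 (-0.52 ± 0.13), ACLY (-0.50 ± 0.11), MSMO1 (-0.43 ± 0.10) and FADS2 (-0.38 ± 0.09), with adjusted p from 0.00549 to 0.0329. INSIG1 did not pass (-0.37 ± 0.12, adjusted p = 0.0840). Only 1 gene passed without the 4 h libraries and 0 without the 8 h libraries. Leaving out the 8 h ibrutinib or the 8 h combination library left 2, the 4 h ibrutinib library 4, the 12 h combination library 5 and the 12 h ibrutinib library 6.

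Against SPX5551, 8 of the 39 genes fell and 1 rose, where 3.97% of all genes were lower and 3.27% higher. The genes that fell were 6 sterol enzymes, INSIG1 and ELOVL6. MSMO1 had 83.3, 117 and 91.4 CPM in combination cells, against 117, 169 and 146 CPM in SPX5551 cells, and SQLE had 196, 211 and 175 CPM, against 245, 308 and 237 CPM. Neither gene's groups overlapped, and both were lower at all 3 times (-0.56 ± 0.10, adjusted p = 0.00641, and -0.43 ± 0.11, adjusted p = 0.0245). ELOVL6 (-0.84 ± 0.15), INSIG1 (-0.55 ± 0.12), ACAT2 (-0.54 ± 0.13), FDFT1 (-0.40 ± 0.09), NSDHL (-0.39 ± 0.10) and FDPS (-0.36 ± 0.10) also fell, with adjusted p from 0.00592 to 0.0424. CYP51A1 rose, with 6.71, 5.24 and 6.41 CPM in combination cells, against 2.37, 4.98 and 3.27 CPM in SPX5551 cells. Its groups did not overlap, although the 8 h libraries were close (0.79 ± 0.23, adjusted p = 0.0455). FASN had a positive value of 0.36 ± 0.13 that did not pass, and -0.04 ± 0.10 with the length and GC trend removed. Without the 12 h combination library 2 genes passed, without the 4 h SPX5551 library 3, and without the 4, 8 or 12 h libraries 3, 4 and 4.

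**Figure D4:**
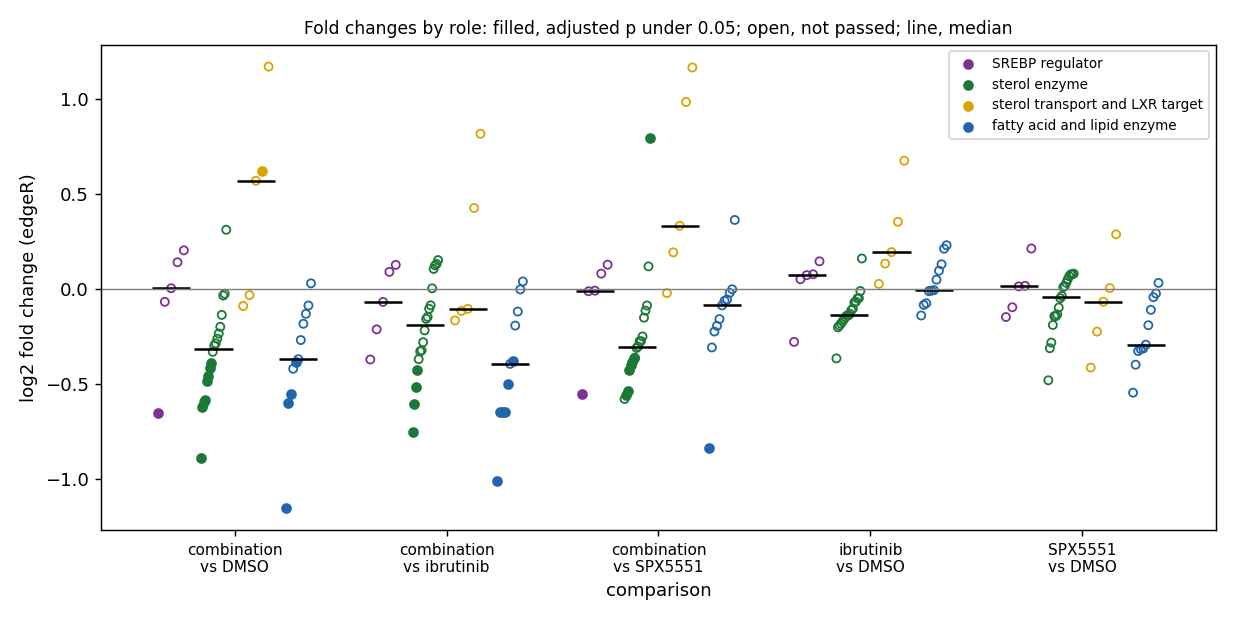
Log2 fold changes of the 39 genes (points) by role in 5 comparisons, with the median of each role as a line; filled points passed at an adjusted p under 0.05. Sterol and fatty acid medians are -0.32 and -0.37 for combination against DMSO, and no point is filled for either agent alone.

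Whether the combination departed from the sum of the agents' log2 changes was tested as an interaction. No gene of the 39 passed, and 0% of all genes did in either direction. There were 6 of the 39 at an unadjusted p under 0.05, where 845 of all 14412 genes were, and 0 of the 39 by DESeq2 or limma. ELOVL6 had the smallest p, with a departure of -0.70 ± 0.21 on the log2 scale (unadjusted p = 0.00493, adjusted p = 0.766). SQLE (-0.42 ± 0.15), MSMO1 (-0.39 ± 0.15), FADS1 (-0.36 ± 0.15) and ACAT2 (-0.41 ± 0.18) followed.

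The design also allows the times to be compared, with the 4 treatments standing in as replicates. The 4 libraries of a time may share other conditions, such as time in culture or handling, which cannot be told apart from it. At 8 h against 4 h, 15 of the 39 genes rose and 2 fell, where 13.1% of all genes were higher and 13.4% lower. Of the 18 sterol enzymes 10 rose and 0 fell, with a median log2 fold change of 0.38, against 0.01 over all genes. TM7SF2 had 39.4, 37.3, 39.5 and 47.9 CPM at 8 h in combination, ibrutinib, SPX5551 and DMSO cells, against 24.9, 18.7, 25.0 and 17.7 CPM at 4 h. Every 8 h library was above every 4 h library, and the log2 fold change was 0.93 ± 0.12 (adjusted p = 1.00e-04). MVD had 66.8, 55.8, 56.4 and 72.2 CPM at 8 h, against 46.8, 34.4, 31.3 and 35.5 CPM at 4 h, also without overlap (0.76 ± 0.13, adjusted p = 7.44e-04). MSMO1 (0.70 ± 0.09), ACAT2 (0.61 ± 0.11), HSD17B7 (0.61 ± 0.10), MVK (0.53 ± 0.10), EBP (0.49 ± 0.09), LSS (0.42 ± 0.10), FDFT1 (0.38 ± 0.08) and SQLE (0.38 ± 0.09) rose as well. INSIG2 fell, with 14.8, 13.2, 17.0 and 13.9 CPM at 8 h, against 22.6, 18.8, 18.4 and 19.0 CPM at 4 h, and no overlap (-0.42 ± 0.10, adjusted p = 0.00666). ACSL3 was the other gene that fell (-0.24 ± 0.07). The remaining genes that rose were PCYT2 (0.34 ± 0.09), ACSS2 (0.32 ± 0.11), FASN (0.31 ± 0.11), SREBF2 (0.26 ± 0.08) and SCAP (0.21 ± 0.07). With the length and GC trend removed these values were 0.12, 0.25, 0.06, 0.13 and 0.03, and none passed. ACSL3 (-0.12 ± 0.06) did not pass after that removal either, while INSIG2 and the sterol enzymes named here did.

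The comparison of 12 h with 8 h shares the 8 h libraries with the comparison of 8 h with 4 h. In it the order turned: 8 of the 39 genes fell and 0 rose, where 4.66% of all genes were lower and 4.41% higher. They were 6 sterol enzymes, MVK (-0.57 ± 0.10), MVD (-0.57 ± 0.13), DHCR7 (-0.52 ± 0.11), EBP (-0.45 ± 0.09), NSDHL (-0.43 ± 0.09) and HSD17B7 (-0.36 ± 0.10), with FADS2 (-0.45 ± 0.08) and SCD (-0.38 ± 0.10). MVK had 49.3, 69.7, 71.4 and 75.0 CPM at 12 h in combination, ibrutinib, SPX5551 and DMSO cells, against 85.9, 101, 90.9 and 113 CPM at 8 h. Every 12 h library was below every 8 h library, and the combination library was the lowest (adjusted p = 0.0108). The count was 0 without the 12 h combination, the 8 h combination or the 8 h DMSO library, and it was 4, 5 or 16 when the 12 h DMSO, ibrutinib or SPX5551 library was left out. At 12 h against 4 h, 6 of the 39 rose and 7 fell, where 18.4% of all genes were higher and 17.5% lower. TM7SF2 (0.85 ± 0.12), ABCA1 (1.42 ± 0.35), MSMO1 (0.43 ± 0.09), ACAT2 (0.43 ± 0.11), ACSS2 (0.37 ± 0.11) and FDFT1 (0.25 ± 0.08) rose. INSIG1 (-0.49 ± 0.11), FADS2 (-0.44 ± 0.08), SCD (-0.42 ± 0.10), DHCR7 (-0.38 ± 0.11), FADS1 (-0.33 ± 0.09), INSIG2 (-0.32 ± 0.10) and NSDHL (-0.25 ± 0.09) fell. ABCA1 had 4.61, 3.23, 0.693 and 2.06 CPM at 12 h in combination, ibrutinib, SPX5551 and DMSO cells, against 0.833, 1.14, 0.875 and 0.962 CPM at 4 h. It was higher at 12 h in every treatment but SPX5551.

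Of 40 other genes of these pathways, listed by function, 39 were tested, ME1 being the exception. In combination against DMSO cells 2 rose and 6 fell, where 4.16% of all genes were higher and 5.41% lower. SCARB1, the receptor that takes up sterol esters from lipoproteins, had 68.7, 57.5 and 49.8 CPM in combination cells, against 104, 102 and 92.8 CPM in DMSO cells. All combination libraries were below all DMSO libraries (-0.78 ± 0.09, adjusted p = 1.79e-04). TMEM97, a sterol-binding membrane protein, had 102, 98.4 and 93.2 CPM, against 143, 171 and 149 CPM, again with no overlap (-0.65 ± 0.09, adjusted p = 5.03e-04). The fatty acid binding protein FABP5 (-0.55 ± 0.12), the mitochondrial malonyl transferase MCAT (-0.50 ± 0.13), UBE2G2 (-0.41 ± 0.09), a ubiquitin conjugating enzyme of the endoplasmic reticulum, and the acyl-CoA synthetase ACSL1 (-0.37 ± 0.09) were the others that fell. The carboxylase ACACB (0.63 ± 0.18) and NR1H2, an LXR receptor (0.35 ± 0.10), rose. Over these 39 genes the median log2 fold change was 0.03. Against ibrutinib, 2 rose and 4 fell in combination cells, where 2.10% of all genes were higher and 3.39% lower, and against SPX5551, 3 rose and 4 fell, where 3.27% were higher and 3.97% lower. SCARB1 differed by -0.67 ± 0.09 and -0.48 ± 0.09 in these comparisons. At 8 h against 4 h, 8 of them rose and 9 fell, where 13.1% of all genes were higher and 13.4% lower. The largest changes were those of AACS, which makes acetoacetyl-CoA (0.77 ± 0.10), and MID1IP1, a partner of the carboxylases (0.77 ± 0.10). At 12 h against 4 h, 7 of these genes rose and 11 fell, where 18.4% of all genes were higher and 17.5% lower. At 12 h against 8 h, 0 rose and 4 fell, where 4.41% were higher and 4.66% lower.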

How the data were processed

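Poly(A) RNA of REC1 cells was sequenced with a directional library kit on a NextSeq2000, per the labels' protocols. BWA and build hg38 are named, per the submitters' processing notes; the sources used here name no counting tool, annotation or strand setting. The authors deposited whole-number counts for 60483 Ensembl genes, which were the input of the main tests. Columns were assigned by the treatment and time in their headers. They also deposited log2 CPM for 14767 genes, which was used in one alternative. Transcript lengths came from GENCODE release 29. Symbols came from a separate gene-name reference, or from that release where the reference had none (93.8% of identifiers had a symbol).

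The filter on low counts was filterByExpr by treatment (edgeR 4.0.16 in R 4.3.3), which 14412 genes passed. TMM scaling and the quasi-likelihood test of edgeR were used, with treatment and time as additive terms over all 12 libraries, and adjusted by Benjamini-Hochberg over all genes tested at 0.05. The interaction was combination minus ibrutinib minus SPX5551 plus DMSO. The SE of a log2 fold change was derived from the F statistic, as its size over the root of F. CPM uses TMM-scaled library sizes, and values on the log2 CPM scale carry a prior count of 2. No molecular identifiers marked PCR copies, so the error exceeds that of counting alone. The common biological coefficient of variation was 0.101. Promoters were searched in the RefSeq table of GRCh38.p14.

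The genes and lists were chosen with earlier results of these data known. All genes of the group are accounted for; genes past the threshold are named. Where more than 12 passed, the rule was to name the 12 with the largest change, and the rest were added after their values were seen. Where no gene passed, the 5 smallest p are given. At most 6 other pathway genes were to be named per comparison; ACSL1 and NR1H2 were added after their values were seen. The time slope and the short promoter motif were added after values were seen. Alternatives were DESeq2 1.42.0, its size factors (RLE), library size alone, no filter, no time or treatment term, removal of a length and GC trend (spline with 5 degrees of freedom), limma 3.58.1 on the deposited log2 CPM, left-out libraries, and the columns paired by the descriptions.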

Additional observations from a re-analysis of the deposited data

Results flagged for a closer look

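For each gene, the 4 libraries of each time were examined for 1 that stood apart from the other 3 by Dixon's criterion, which chance meets in about 1 of 20 such groups. That rate is for replicates, whereas the 4 libraries of a time had different treatments. Of 117 groups, 10 met the criterion, and 8 of these were combination libraries. The same share over all genes was not computed, so these counts cannot be read as particular to this group. At 12 h, the combination library was the lowest for ACAT2 at 141 CPM (the other 3 at 233 to 253 CPM), for IDI1 at 225 CPM (308 to 321 CPM) and for FDFT1 at 347 CPM (491 to 526 CPM). At 8 h it was the lowest for SC5D at 73.1 CPM (93.0 to 95.3 CPM). At 4 h it was the lowest for SQLE at 196 CPM (238 to 247 CPM), and the highest for SC5D at 101 CPM (84.4 to 86.2 CPM), STARD4 at 67.7 CPM (55.0 to 56.3 CPM) and INSIG2 at 22.6 CPM (18.4 to 19.0 CPM). The 12 h SPX5551 library was the highest for PMVK at 32.5 CPM (21.3 to 22.3 CPM) and the lowest for CYP51A1 at 3.27 CPM (6.29 to 6.92 CPM).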

How the results depend on the processing

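The direction of the 14 genes that passed for combination against DMSO was kept in all 322 single-gene values over the alternatives with columns paired by their headers, of which 264 stayed past the threshold and 58 did not. The time or treatment term acts as the replicate block, which pairs libraries of the same time or treatment. With no replicate block, 1 gene passed for combination against DMSO, 0 against ibrutinib, 0 against SPX5551, 4 for 12 h against 4 h, 10 for 8 h against 4 h and 0 for 12 h against 8 h. With the length and GC trend removed, 22 passed for combination against DMSO, 16 against SPX5551 and 15 for 12 h against 8 h. With no filter on low counts, 3 passed for SPX5551 against DMSO, 16 for combination against ibrutinib, 16 against SPX5551 and 16 for 12 h against 8 h. For 12 h against 8 h, DESeq2 gave 14, and leaving out the 8 h ibrutinib and 12 h SPX5551 libraries together gave 20. The cause of each change was not tested. Shares of all genes under these alternatives are not given either, so the changes describe the counts of this group alone.

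With the columns paired by the descriptions, 9 passed for combination against DMSO (8 higher, 1 lower), 14 for ibrutinib against DMSO and 10 for SPX5551 against DMSO. There were 0 for combination against ibrutinib and 10 for the interaction. Shares of all genes under that pairing are not given here, so these counts describe the group alone. Leaving out single libraries, times or treatments gave 3 to 18 for combination against DMSO, 0 to 1 for ibrutinib against DMSO, 0 to 0 for SPX5551 against DMSO, 0 to 13 for combination against ibrutinib (6 and 5 without the 12 h ibrutinib and combination libraries), 2 to 12 for combination against SPX5551, 0 to 1 for the interaction, 8 to 15 for 12 h against 4 h, 11 to 17 for 8 h against 4 h and 0 to 16 for 12 h against 8 h (5 without the 12 h ibrutinib library). Low counts limit ABCA1 and ABCG1, and 1 library per treatment and time limits every test.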
